A study of Mus musculus x Mus spretus with 8 samples.

Results

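The NRF2, glutathione and antioxidant genes described here are 38 mouse genes chosen by name: the stress regulators Nfe2l2 and Keap1, and genes of glutathione, thioredoxin, peroxiredoxin, NADPH and heme metabolism. Each was matched through its Ensembl identifier, and all 38 were found among the 49670 genes counted and were among the 17839 that passed the filter on low counts. The 8 RNA-seq libraries came from Patski cells, a line labelled as female mouse fibroblasts with C57BL/6 X SPRET/EiJ parentage. Of the 4 groups of 2 libraries each, 1 was wild type (WT), and the other three carried the labels stc1 -/-, pygo1 -/- and rlim -/-, here Stc1-KO, Pygo1-KO and Rlim-KO. All groups share the labelled parentage and a serum-containing medium, and the labels name no oxidant, electrophile or other treatment. The series' text speaks of independent mutants, but the labels do not say which libraries are separate clones or cultures, so p-values measure the spread between these libraries, which may be technical.

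NRF2, the transcription factor encoded by Nfe2l2, is held at a low level by KEAP1, which hands it to a CUL3 ubiquitin ligase for destruction. Oxidants and electrophiles modify cysteines of KEAP1, and NRF2 then builds up, pairs with small MAF proteins and switches on genes that carry antioxidant response elements. Its known targets make glutathione, reduce thioredoxin and peroxiredoxins, conjugate electrophiles to glutathione, supply NADPH and break down heme. In cultured fibroblasts and kidney epithelium these genes are known as a steady defence that rises under stress.

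Depth ran from 73128996 to 81500061 counts per library, and 50.64 to 52.64% of the counts were assigned to one of the parental genomes, which the files call genome 1 and genome 2 without saying which parent each is. Levels are given as CPM, counts scaled to a common library total after TMM adjustment of the library sizes. No targeted gene differed past the test in the libraries labelled for it: Stc1 stood at 3.84 and 3.15 CPM in WT and at 3.67 and 68.4 CPM in Stc1-KO, Pygo1 at 2.49 and 2.44 CPM in WT and 2.5 and 0.674 CPM in Pygo1-KO, and Rlim at 57.2 and 51.4 CPM in WT and 71.9 and 64.2 CPM in Rlim-KO (edgeR adjusted p = 0.236, 0.715 and 0.699). Gene totals therefore do not check the labels, and whether they cover the altered exons is not given. Of 12 fibroblast markers 6 averaged at least 1 CPM across libraries: Vim, Fbn1 and Col5a1 were abundant, while Col1a2, Thy1 and Lum were at or near 0 CPM, and the list summed to 1520 to 1560 CPM in WT, 1510 to 1660 in Stc1-KO, 1490 to 1860 in Pygo1-KO and 1320 to 1340 in Rlim-KO. The kidney epithelium genes Cdh16, Pax2, Pax8 and Lrp2 stood between 455 and 2360 CPM in every library. The other genes of the epithelium and kidney tubule list were far lower. Krt7 stood between 24 and 57.3 CPM and Cdh1 between 0.201 and 20.1. Cubn was at most 3.13 CPM, Epcam 2.67 and Krt8 1.68, and Krt18, Krt19, Slc34a1 and Umod were at most 0.328. Of that list, 9 of 13 genes averaged at least 1 CPM, and the list summed to 3670 to 3800 CPM in WT, 4200 to 4480 in Stc1-KO, 3090 to 3490 in Pygo1-KO and 3710 to 3840 in Rlim-KO. The endothelial gene Cdh5 was at 100 CPM in the second Stc1-KO library and at most 6.41 CPM in the others. In that library the listed endothelial genes Pecam1, Kdr, Tie1, Tek and Emcn were at most 0.24 CPM. Of 8 macrophage and leukocyte genes 3 averaged at least 1 CPM: Csf1r (26.5 to 57), Cd14 (46 to 69.5) and Cd68 (1.81 to 7.61). Ptprc, Adgre1, Lyz2, Itgam and Aif1 were at most 1.17 CPM. The part of these markers in the results below was not tested.

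Several of these genes belong to families whose messages are translated in an unusual way or are nearly interchangeable. The codons given first concern translation and not counting, while the sequences shared between relatives show why a count can be uncertain. In 5 of the 38 genes the annotation places selenocysteine, the selenium analogue of cysteine at the catalytic centre of these enzymes, at a TGA codon that otherwise means stop. The coding bases around that codon are printed from the GENCODE M21 transcripts (GRCm38), 5′ to 3′, with the TGA in capitals. In the glutathione peroxidases the codon lies far inside the frame, and in both thioredoxin reductases it is the next to last codon, so that little coding sequence follows it.
Gpx1: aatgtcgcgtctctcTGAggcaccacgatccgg
Gpx3: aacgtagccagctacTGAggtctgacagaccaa
Gpx4: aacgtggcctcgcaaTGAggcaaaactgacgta
Txnrd1: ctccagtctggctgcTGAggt
Txnrd2: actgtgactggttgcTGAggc
The TGA is codon 47 of 201 in Gpx1 (chr9:108339451-108339453, plus strand), codon 73 of 197 in Gpx4 (chr10:80054737-80054739, plus strand), codon 498 of 499 in Txnrd1 (chr10:82896037-82896039, plus strand) and codon 526 of 527 in Txnrd2 (chr16:18477772-18477774, plus strand). In Gpx3 it is codon 73 of 226 (chr11:54907256-54907258, plus strand).

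The mu-class glutathione transferases Gstm1, Gstm2 and Gstm5 lie side by side on chromosome 3 with Gstm3, Gstm4, Gstm6 and Gstm7, which are not among the 38 genes. The first 75 coding bases of Gstm1, Gstm2 and Gstm4 are printed from the same transcripts because their reads by genome are set side by side below. Capitals mark the bases that differ from Gstm1, which are 12 in Gstm2 and 16 in Gstm4.
Gstm1: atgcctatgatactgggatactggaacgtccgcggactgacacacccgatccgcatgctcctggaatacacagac
Gstm2: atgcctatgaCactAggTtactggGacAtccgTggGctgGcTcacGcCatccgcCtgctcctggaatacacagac
Gstm4: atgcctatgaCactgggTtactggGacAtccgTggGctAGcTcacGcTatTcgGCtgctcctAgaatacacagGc
Over the whole coding sequence of 654 bases, Gstm1 was 85.9% identical to Gstm2, with a longest identical run of 60 bases, and 80.1% identical to Gstm4, with a run of 26. Gstp1 was 98.1% identical to its neighbour Gstp2, with an identical run of 300 of 630 coding bases. Of all 50-base windows of the chosen transcript, 62.3% in Gstp1, 68.9% in Gpx4, 33.4% in Me1, 29.7% in Prdx5, 23.7% in Prdx2, 23.1% in Gstm1 and 23.1% in Sod1 were also found in a transcript of another gene. Over 10% of windows were shared in 5 more genes, and 21 of the 38 shared none. The sources used here do not say how reads that match several genes were counted, so the levels of these 7 genes are uncertain in that respect.

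The cells expressed most of the antioxidant system. In every library 32 of the 38 genes reached 10 CPM and 15 reached 100 CPM. To compare genes, CPM was divided by exon length in kilobases. On that scale the pi-class transferase Gstp1 was the highest, with a mean of 446 (range 283 to 585 over the 8 libraries), followed by Gstm1 at 271 (163 to 356), the mitochondrial and peroxisomal peroxiredoxin Prdx5 at 236 (136 to 309), the lipid hydroperoxide-reducing peroxidase Gpx4 at 204 (157 to 243) and the cytosolic peroxiredoxin Prdx2 at 172 (124 to 212). Nfe2l2 ranked 25 of 38, with a mean of 18.5 CPM per kilobase, and Keap1 ranked 29, with 13.4. The ranges of neighbours in this order overlapped in 36 of 37 cases, so the order is one of broad tiers. The exception separated Mgst1, with a lowest value of 1.08 CPM per kilobase, from Gpx3, with a highest of 0.722.

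**Figure D1:**
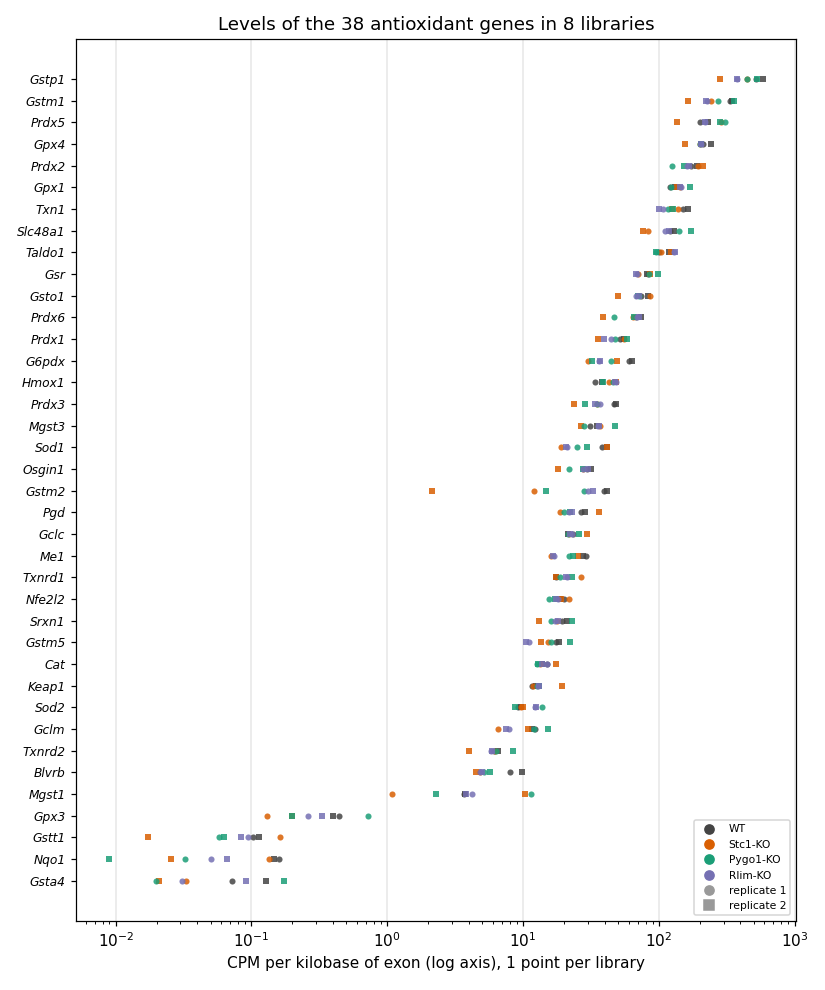
Level of each of the 38 genes in CPM per kilobase of exon (log axis), 1 point per library, coloured by group, with circles for replicate 1 and squares for replicate 2. Gstp1 is highest at 283 to 585, and Gpx3, Gstt1, Nqo1 and Gsta4 lie below 1 in every library.

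The lowest 4 genes included a textbook NRF2 target. Nqo1, the quinone reductase often used as a readout of NRF2, had 19 and 18 reads in the WT libraries, 15 and 3 in Stc1-KO, 4 and 1 in Pygo1-KO and 6 and 8 in Rlim-KO. These are at most 0.247 CPM, and every mutant library was below both WT libraries. No difference from WT passed the test (edgeR adjusted p = 0.58, 0.142 and 0.404), and at this depth fold changes of Nqo1 rest on a handful of reads. The transferases Gsta4 (2 to 16 reads) and Gstt1 (2 to 18 reads) and the secreted peroxidase Gpx3 (17 to 104 reads) were the other three.

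Against WT, none of the 38 genes passed the test in any of the 3 lines (edgeR quasi-likelihood test, Benjamini-Hochberg adjusted p under 0.05 over all genes tested). Of all genes tested, 0.577% were called in Stc1-KO, 2.35% in Pygo1-KO and 1.4% in Rlim-KO. At an unadjusted p under 0.05, 9, 6 and 10 of the 38 genes were past the threshold, as were 2862, 3680 and 3195 of all 17839 genes. DESeq2 called 3, 1 and 4 of the 38, and its share over all genes is not given here. The smallest adjusted p in each line was that of Blvrb, at 0.0666, 0.0684 and 0.0552. The edgeR counts depended on the Stc1-KO libraries and rose when either was left out, in fits that leave that group a lone library. Without the first, the share of all genes called rose as well. With only the 4 libraries of WT and Rlim-KO in the fit, 24 of 37 genes were called, where 48.9% of all genes were.

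The levels nevertheless lay below WT more often than those of other genes. The median log2 fold change of the 38 genes was -0.29 in Stc1-KO, -0.13 in Pygo1-KO and -0.19 in Rlim-KO, where the median over all genes tested was 0.01, 0.00 and 0.01. Both libraries of the line were below both WT libraries in 18 of the 38 genes in Stc1-KO (47.4%, against 22.2% of all genes), in 18 in Pygo1-KO (47.4% against 31.0%) and in 24 in Rlim-KO (63.2% against 35.6%). Both were above in 3, 6 and 8 genes (7.89%, 15.8% and 21.1%), where 22.2%, 29.6% and 35.7% of all genes were. All 6 mutant libraries were below both WT libraries in 8 genes (Blvrb, G6pdx, Gpx4, Gstm2, Me1, Nqo1, Prdx3 and Txn1), a pattern seen in 9.5% of all genes, and above in Hmox1 alone, a pattern seen in 9.3%. The 3 comparisons share the WT libraries, so these counts do not support each other. The 38 genes were chosen with earlier results of these data known, so the shares set against all genes are a description only. In bulk RNA, fewer cells that express a gene and less of its RNA per cell cannot be told apart.

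**Figure D2:**
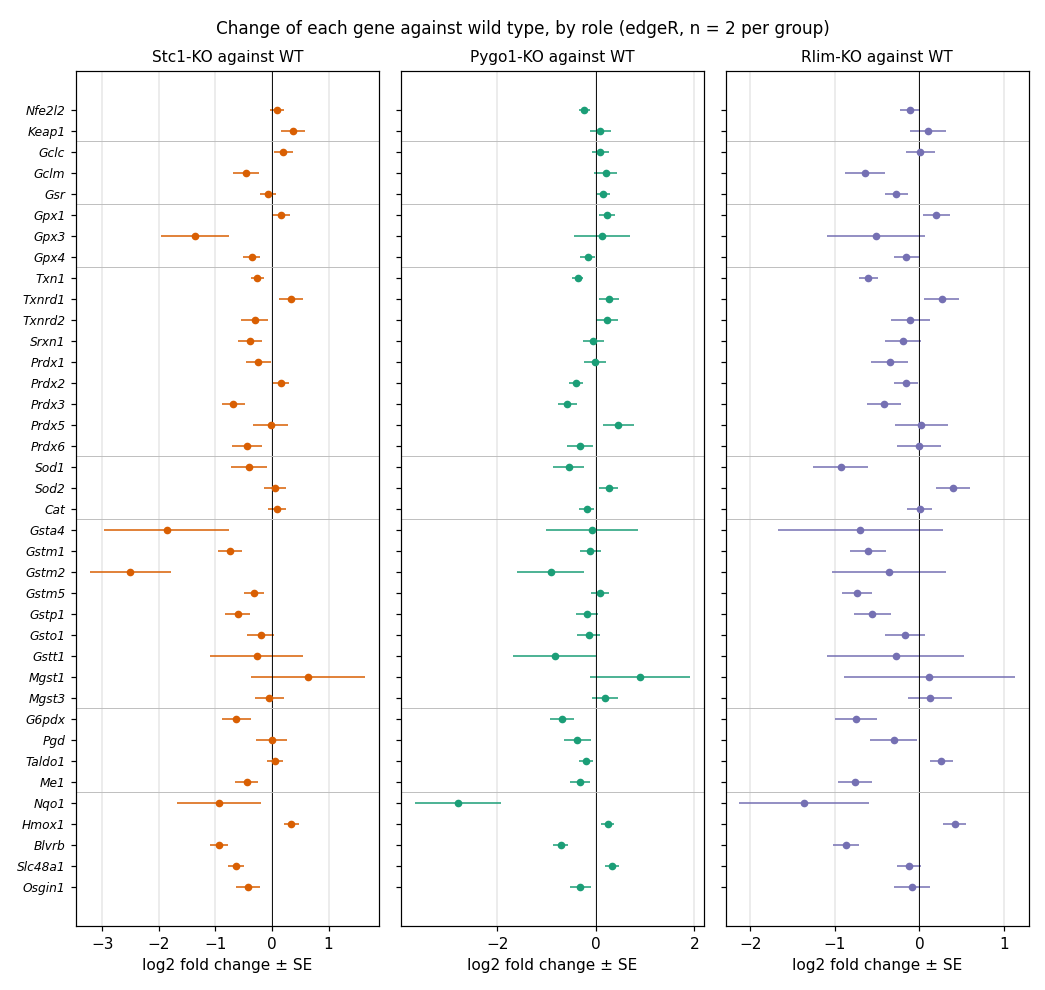
Log2 fold change against WT (points) with its standard error (bars) for the 38 genes in each line, ordered and separated by role, from edgeR with 2 libraries per group and a separate x scale for each panel. Most points lie left of 0 in Stc1-KO and Rlim-KO, and Nqo1, Gstm2 and Mgst1 have wide errors.

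Among the regulators, Nfe2l2 (ENSMUSG00000015839; GRCm38 chr2:75675513-75704641, minus strand) stood at 75.5 and 70.8 CPM in WT, 83.4 and 72 in Stc1-KO, 59.2 and 65.5 in Pygo1-KO and 68.9 and 66.7 in Rlim-KO. The Pygo1-KO and Rlim-KO libraries were below both WT libraries, and the Stc1-KO libraries overlapped WT. The log2 fold changes were 0.09 ± 0.12, -0.23 ± 0.12 and -0.11 ± 0.12 (SE; adjusted p = 0.765, 0.328 and 0.688). Keap1 (chr9:21229730-21239361, minus strand) stood at 54.8 and 58.8 CPM in WT, 55.4 and 91.3 in Stc1-KO, 59.7 and 61.5 in Pygo1-KO and 60.5 and 61.5 in Rlim-KO. Only the second Stc1-KO library stood far from the rest, and the adjusted p was 0.452, 0.845 and 0.853. Keap1 shares 510 exon bases with Gm16754 on the opposite strand, and the strand setting of the counting is not given. Of 10 further regulators tested, among them Bach1, the small MAF genes and Cul3, 0 were called in any line.

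Glutathione is made in 2 steps, the first catalysed by the ligase of GCLC, which holds the active site, and GCLM, which modifies it. Gclc (chr9:77754535-77794485, plus strand) stood at 87.3 and 80.2 CPM in WT, 81.7 and 111 in Stc1-KO, 80.6 and 97.5 in Pygo1-KO and 86 and 83 in Rlim-KO. At least 1 library of each line lay within the WT range (adjusted p = 0.604, 0.811 and 0.981). Gclm (chr3:122245557-122270732, plus strand) was less even, at 77.5 and 73.1 CPM in WT, 41.4 and 68.3 in Stc1-KO, 76.2 and 96.5 in Pygo1-KO and 49.6 and 47.1 in Rlim-KO. Stc1-KO and Rlim-KO were below WT without overlap, by -0.46 ± 0.24 and -0.64 ± 0.24 on the log2 scale, which did not pass the test (adjusted p = 0.397 and 0.223). The 10 genes around Gclm had median log2 fold changes of -0.289 in Stc1-KO, -0.006 in Pygo1-KO and -0.702 in Rlim-KO, and the part of the region was not tested. Gclm shares 244 exon bases with Gm6061 on the same strand and 296 with Gm17494 on the opposite strand, so its level is uncertain. Gsr, which returns oxidised glutathione to its reduced form, ranged from 188 to 271 CPM.

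The glutathione peroxidases use glutathione to reduce peroxides. Gpx1 ranged from 173 to 244 CPM over the 8 libraries, and its log2 fold changes were 0.16, 0.22 and 0.20. Gpx4 ranged from 270 to 419 CPM and was lowest in the second Stc1-KO library. Its fold changes were -0.36, -0.17 and -0.16 with a standard error of 0.15 each, and the adjusted p was 0.301 to 0.635.

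In the thioredoxin and peroxiredoxin system 9 genes were measured. Thioredoxin reductase 1 (Txnrd1, chr10:82833951-82897712, plus strand) recharges cytosolic thioredoxin with NADPH, and stood at 123 and 123 CPM in WT, 188 and 123 in Stc1-KO, 133 and 162 in Pygo1-KO and 149 and 146 in Rlim-KO. Both Pygo1-KO and both Rlim-KO libraries were above WT, by 0.26 ± 0.21 on the log2 scale in each (adjusted p = 0.511 and 0.561). Srxn1, sulfiredoxin, rescues over-oxidised peroxiredoxins. Srxn1 (chr2:152105516-152111376, plus strand) stood at 55 and 59.7 CPM in WT, 50.6 and 36.7 in Stc1-KO, 45.6 and 65 in Pygo1-KO and 48.7 and 51.3 in Rlim-KO. The Pygo1-KO libraries fell on either side of WT and the other lines below it (adjusted p = 0.412, 0.911 and 0.679).

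Prdx3, the mitochondrial peroxiredoxin (chr19:60864051-60874556, minus strand), was lower in all 6 mutant libraries. It stood at 68.8 and 71.7 CPM in WT, 52.3 and 35.1 in Stc1-KO, 51.8 and 42.4 in Pygo1-KO and 54.5 and 50.4 in Rlim-KO. The log2 fold changes were -0.69 ± 0.20, -0.58 ± 0.20 and -0.42 ± 0.20 (adjusted p = 0.189, 0.174 and 0.332). Thioredoxin itself (Txn1) ranged from 106 to 172 CPM and was also below WT in every mutant library, by -0.60 ± 0.12 in Rlim-KO (adjusted p = 0.0624). The remaining members of the system were Prdx1 (108 to 178 CPM), Prdx2 (379 to 646), Prdx5 (292 to 661), Prdx6 (188 to 353) and the mitochondrial reductase Txnrd2 (17.7 to 37.4). Prdx5 shares 409 exon bases with Trmt112, so its level is uncertain.

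The superoxide dismutases turn superoxide into hydrogen peroxide, which catalase breaks down. Sod1, the cytosolic enzyme (chr16:90220754-90226329, plus strand), stood at 152 and 166 CPM in WT, 75.3 and 165 in Stc1-KO, 99.8 and 117 in Pygo1-KO and 84.1 and 82.7 in Rlim-KO. Pygo1-KO and Rlim-KO were below WT without overlap, and one Stc1-KO library equalled WT while the other was the lowest of all. The fold change in Rlim-KO was -0.93 ± 0.33 (adjusted p = 0.2). The mitochondrial Sod2 ranged from 87.7 to 137 CPM and catalase (Cat) from 32.9 to 45.5 CPM.

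The glutathione transferases join glutathione to electrophiles. Gstm2 (chr3:107981702-107986453, minus strand) stood at 66.4 and 69.3 CPM in WT, 20.4 and 3.59 in Stc1-KO, 46.9 and 25 in Pygo1-KO and 50.2 and 55.5 in Rlim-KO. All 6 mutant libraries were below WT, but the Stc1-KO libraries differed widely from each other, and so did the Pygo1-KO libraries. Its change in Stc1-KO, -2.50 ± 0.72, was the largest of the 38 genes there and missed the threshold (adjusted p = 0.183).

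Gstm1 (chr3:108012255-108017973, minus strand) stood at 493 and 511 CPM in WT, 360 and 241 in Stc1-KO, 402 and 524 in Pygo1-KO and 332 and 326 in Rlim-KO. Stc1-KO and Rlim-KO were below WT without overlap (-0.74 ± 0.21 and -0.61 ± 0.21, adjusted p = 0.184 and 0.202), and Pygo1-KO straddled it. Mgst1, a membrane-bound transferase (chr6:138140316-138156755, plus strand), stood at 7.42 and 7.47 CPM in WT, 2.17 and 21 in Stc1-KO, 23.1 and 4.6 in Pygo1-KO and 8.51 and 7.66 in Rlim-KO. Within Stc1-KO and within Pygo1-KO, one library was above WT and the other below, so the group means (fold changes 0.64 ± 1.01 and 0.90 ± 1.01) describe neither. Gstp1 ranged from 437 to 906 CPM, Gsto1 from 101 to 175, Mgst3 from 29.4 to 51.9 and Gstm5 from 13.5 to 28.4, with Gstm5 lowest in the Rlim-KO pair.

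NADPH, the reducing power behind both systems, comes from the pentose phosphate pathway and malic enzyme. G6pdx, the first enzyme of that pathway (chrX:74409483-74429194, minus strand), stood at 185 and 195 CPM in WT, 92.8 and 153 in Stc1-KO, 136 and 99.3 in Pygo1-KO and 112 and 113 in Rlim-KO. All 6 mutant libraries were below WT, with log2 fold changes of -0.63, -0.69 and -0.76, each ± 0.25 (adjusted p = 0.283, 0.186 and 0.18). G6pdx shares 418 exon bases with Ikbkg, so its level is uncertain. It is X-linked, and the median change of X-linked genes was -0.21, -0.47 and -0.48 in the same comparisons. Me1, cytosolic malic enzyme (chr9:86581371-86695953, minus strand), stood at 112 and 107 CPM in WT, 62.4 and 98.5 in Stc1-KO, 84.6 and 90.6 in Pygo1-KO and 64.8 and 64.2 in Rlim-KO. It was below WT in every mutant library, by -0.76 ± 0.20 in Rlim-KO (adjusted p = 0.123). Pgd ranged from 121 to 234 CPM and Taldo1 from 206 to 287 CPM.

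The heme genes held both the closest approach to a call and the one member that was higher in every mutant library. Blvrb, biliverdin reductase B (ENSMUSG00000040466; chr7:27447978-27466144, plus strand), stood at 22.3 and 27.4 CPM in WT, 13.5 and 12.5 in Stc1-KO, 14.3 and 16 in Pygo1-KO and 13.4 and 13.9 in Rlim-KO. No mutant library came near WT, and the 3 lines resembled each other. The log2 fold changes were -0.94 ± 0.16, -0.71 ± 0.16 and -0.87 ± 0.16. DESeq2 called Blvrb in all 3 lines (adjusted p = 3.23e-05, 0.00298 and 0.000137).

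Hmox1, the inducible heme oxygenase and an NRF2 target (chr8:75093621-75100589, plus strand), stood at 59.1 and 67.2 CPM in WT, 75 and 85.4 in Stc1-KO, 80.7 and 68 in Pygo1-KO and 85.5 and 83 in Rlim-KO. Every mutant library was above both WT libraries, by 0.35, 0.24 and 0.42 on the log2 scale, each ± 0.14 (adjusted p = 0.282, 0.376 and 0.178). Osgin1, an oxidative stress-induced growth inhibitor, ranged from 48.7 to 84.4 CPM.

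Between the lines, 1 of the 38 genes passed the test. Slc48a1 (ENSMUSG00000081534; chr15:97778520-97792692, plus strand) encodes the heme transporter HRG1, and stood at 331 and 358 CPM in WT, 230 and 211 in Stc1-KO, 385 and 479 in Pygo1-KO and 308 and 325 in Rlim-KO. Stc1-KO held the lowest pair and Pygo1-KO the highest, with WT and Rlim-KO between them. Slc48a1 was lower in Stc1-KO than in Pygo1-KO by -0.97 ± 0.14 on the log2 scale (edgeR adjusted p = 0.0308), in a comparison in which 1.74% of all genes were called. Against WT it was at -0.64 ± 0.14 in Stc1-KO and 0.33 ± 0.14 in Pygo1-KO (adjusted p = 0.113 and 0.248). The 10 genes around Slc48a1 had median log2 fold changes against WT of -0.417 in Stc1-KO and 0.007 in Pygo1-KO. The medians of chromosome 15 were -0.17 and 0.142. The part of the region in the difference was not tested. The call was lost with a replicate block (adjusted p = 0.0624), with the 4 compared libraries alone (0.457), without either WT library (0.119), without the second Pygo1-KO library (0.0727) and without the first or the second Rlim-KO library (0.123 and 0.124). Stc1-KO against Rlim-KO and Pygo1-KO against Rlim-KO gave 0 calls among the 38 genes, where 0.381% and 1.02% of all genes were called. At an unadjusted p under 0.05, 3 and 5 of the 38 genes were past the threshold, as were 2666 and 2886 of all 17839 genes. DESeq2 called 1 and 2 of the 38.

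**Figure D3:**
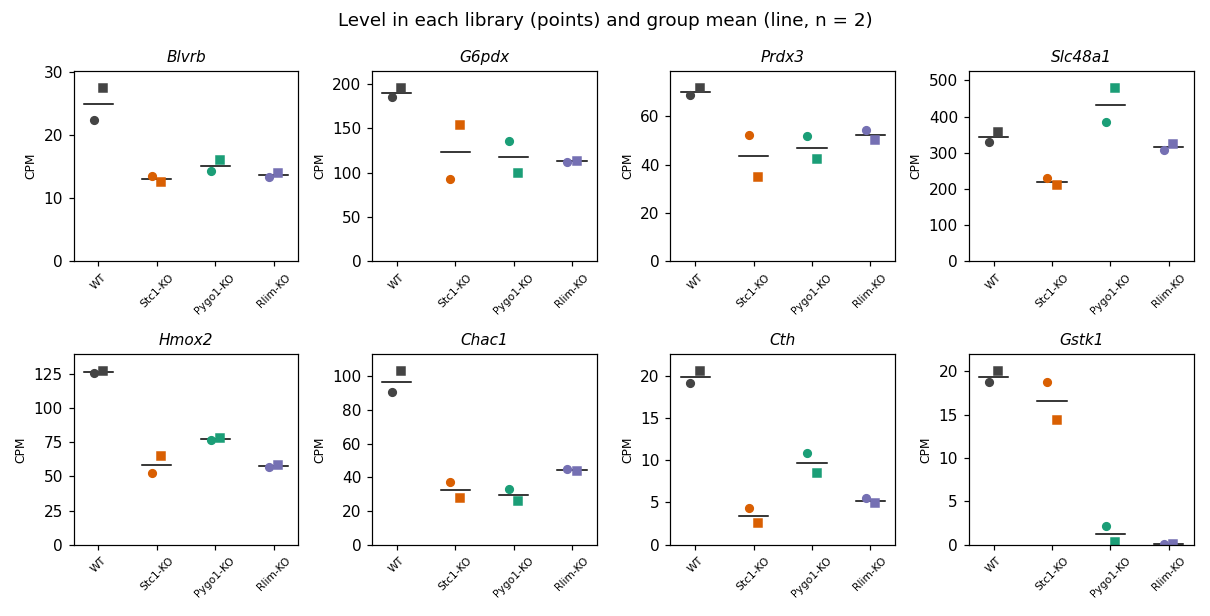
Level in CPM of 4 of the 38 genes (top row) and 4 related genes (bottom row) in each library, with circles for replicate 1, squares for replicate 2 and a line for the group mean (n = 2). Blvrb, Hmox2 and Chac1 are lower in all 6 mutant libraries, Slc48a1 is lowest in Stc1-KO and highest in Pygo1-KO, and Gstk1 is near 0 in Rlim-KO.

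Related genes outside the 38 did pass the test, all downward. Of 88 listed pathway genes 83 were tested. Against WT, 3 fell in Stc1-KO, 5 in Pygo1-KO and 5 in Rlim-KO, with 0 rising. Of all genes tested, 0.291%, 0.807% and 0.617% fell. The pathway lists were chosen with earlier results of these data known, so these counts cannot be read as an enrichment. Chac1, which breaks down glutathione and is a target of the amino acid stress factor ATF4, stood at 90.7 and 103 CPM in WT, 37.1 and 27.5 in Stc1-KO, 33.3 and 26 in Pygo1-KO and 44.7 and 44 in Rlim-KO. It fell in all 3 lines, by 1.59 ± 0.19, 1.71 ± 0.19 and 1.13 ± 0.19 on the log2 scale (adjusted p = 0.0256, 0.0135 and 0.0461). Hmox2, the constitutive heme oxygenase, stood at 126 and 127 CPM in WT and between 52.7 and 78.5 CPM in the 6 mutant libraries, and fell by 1.11 ± 0.13, 0.70 ± 0.13 and 1.13 ± 0.13 (adjusted p = 0.0225, 0.0436 and 0.02). Hmox2 shares 892 exon bases with Cdip1 on the opposite strand, so its level is uncertain.

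Cth, cystathionine gamma-lyase, makes cysteine for glutathione, and stood at 19.1 and 20.5 CPM in WT, 4.28 and 2.54 in Stc1-KO, 10.9 and 8.46 in Pygo1-KO and 5.51 and 4.91 in Rlim-KO. It fell in Stc1-KO (by 2.54 ± 0.28, adjusted p = 0.02) and Rlim-KO (by 1.93 ± 0.27, adjusted p = 0.0332), and its value in Pygo1-KO was -1.03 ± 0.27 (adjusted p = 0.0972). The remaining calls were the transketolase Tkt in Pygo1-KO (-0.77 ± 0.14, adjusted p = 0.0456), the lipoprotein receptor Lrp8 in Pygo1-KO (-0.75 ± 0.14, adjusted p = 0.0462) and the carbonyl reductase Cbr1 in Rlim-KO (-0.61 ± 0.10, adjusted p = 0.0464). Between lines, Gstcd and the epoxide hydrolase Ephx1 were lower in Stc1-KO than in Pygo1-KO (-0.91 ± 0.13 and -1.30 ± 0.22, adjusted p = 0.0248 and 0.0456), and Cbr1 was higher in Pygo1-KO than in Rlim-KO (0.65 ± 0.10, adjusted p = 0.0452). Gstm4 and Gstk1 also differed between lines. The transferases Gstm4, in Pygo1-KO, and Gstk1, in Rlim-KO, are described below with their genomes.

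Reads that can be assigned to a parental genome gave calls in genes whose totals gave none. In WT, 35 of the 38 genes had enough such reads to describe: 17 used genome 1 for 20 to 80% of them, 4 for over 95% (Keap1, Gclc, Gclm and Gpx1) and 4 for under 5% (Nfe2l2, Srxn1, Pgd and Gpx3). Of the 34 genes with at least 20 assigned reads in every library, the genome 1 share differed from WT in 4 in Stc1-KO (11.8%, where 5.54% of the 12476 genes tested did), 15 in Pygo1-KO (44.1% against 20%) and 10 in Rlim-KO (29.4% against 11.9%). These tests were made with edgeR on the counts of both genomes. As the 38 genes were chosen with earlier results of these data known, the excess over all genes is a description only. The share was higher in 2 and lower in 2 genes in Stc1-KO (1.07% and 4.47% of all genes), higher in 12 and lower in 3 in Pygo1-KO (11.9% and 8.04%), and higher in 7 and lower in 3 in Rlim-KO (9.49% and 2.44%). In all, 17 genes on 7 chromosomes changed their share in at least 1 line, and 0 of these changed in total past the test. Without either WT library the counts were 0 in Stc1-KO, 6 or 5 in Pygo1-KO and 0 in Rlim-KO, and without either Rlim-KO library the count in Rlim-KO was 0, as it was for all genes. In Stc1-KO the count was also 1 without its second library and 7 without either Pygo1-KO library.

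**Figure D4:**
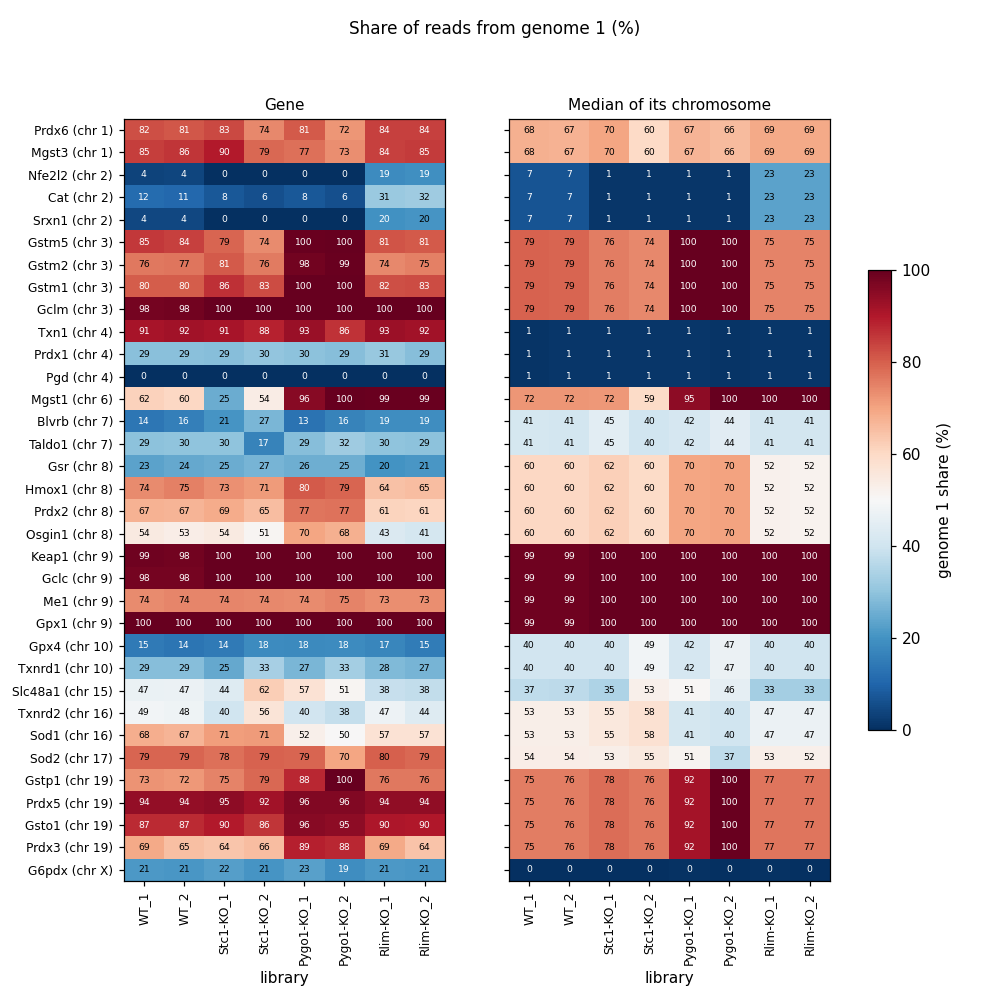
Share of assigned reads that came from genome 1 (percent, by colour and number), for the 34 genes with at least 20 assigned reads in every library (left) and for the median gene of the same chromosome (right), across the 8 libraries. Rows are in chromosome order. Nfe2l2, Srxn1 and Cat are higher or lower than WT in the same lines as their chromosome's median. So are Gstm1 in Pygo1-KO and Osgin1 in Pygo1-KO and Rlim-KO. In Stc1-KO and Rlim-KO, Gstm1 is above WT while the chromosome 3 median is below it. Txn1, Prdx1, Gsr, Sod2, Me1 and Gpx4 stand at least 20 percentage points from their chromosome's median in every library.

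On chromosome 2 the genes moved in opposite directions between the lines. Nfe2l2 itself was read from genome 1 in 3.88% and 3.96% of assigned reads in WT (95% Wilson intervals 3.32 to 4.52% and 3.39 to 4.62%). The share was 0.121% and 0.104% in Stc1-KO, 0.152% and 0.0303% in Pygo1-KO, and 18.7% and 19.2% in Rlim-KO. The WT libraries lay between the others, with no overlap, and the difference from WT passed the test in each line (adjusted p = 0.00685, 0.0017 and 0.0272). The total of Nfe2l2 stayed between 59.2 and 83.4 CPM.

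Srxn1, which lies elsewhere on chromosome 2, showed the same order. Its genome 1 share was 4.5% and 4.4% in WT, 0.0625% and 0.0415% in Stc1-KO, 0.0618% and 0% in Pygo1-KO, and 19.6% and 20.4% in Rlim-KO (adjusted p = 0.00918, 0.00214 and 0.049). The 0 is 0 of 4181 reads, which allows a share of up to 0.0718%. Cat stood at 11.5% and 10.7% in WT and 31.4% and 32.4% in Rlim-KO (adjusted p = 0.00654), and at 6.23 to 7.77% in the 4 Stc1-KO and Pygo1-KO libraries, which did not pass (adjusted p = 0.113 and 0.0502). The median gene of chromosome 2 stood at 6.82% and 6.93% in WT, 1.35% and 1.38% in Stc1-KO, 1.45% and 1.35% in Pygo1-KO and 23.4% and 23.3% in Rlim-KO, so these 3 genes varied as the chromosome did.

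On chromosome 3 the members Gstm1, Gstm2 and Gstm5 were read almost wholly from genome 1 in Pygo1-KO. Gstm1 had a genome 1 share of 80.2% and 80.1% in WT and 99.9% and 99.8% in Pygo1-KO (adjusted p = 3.02e-05), Gstm2 went from 76.4% and 76.6% to 98.4% and 99.4% (0.00156), and Gstm5 also changed (0.00454). The 10 genes around Gstm1 had medians of 74.6% and 74.1% in WT and 99.7% and 99.9% in Pygo1-KO. For Gstm1 the reads of genome 2 went from 90 and 94.4 CPM in WT to 0.516 and 0.84 CPM, and those of genome 1 from 365 and 380 CPM to 371 and 482 CPM. The total of Gstm1 in Pygo1-KO overlapped WT.

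Their neighbour Gstm3 was not: 42.6% and 39.1% of its assigned reads came from genome 1 in Pygo1-KO, next to 32.3% and 35.2% in WT. Gstm3 was 89.4% identical to Gstm1 over the coding sequence, with an identical run of 112 bases. In Pygo1-KO it stood at 16.5 and 23.7 CPM next to 402 and 524 for Gstm1, so its share is uncertain. Gstm4 was the opposite case to Gstm1. In WT only 7.79% and 5.58% of its assigned reads came from genome 1. It stood at 15.4 and 16.7 CPM in WT, 23.1 and 14.7 in Stc1-KO, 18.2 and 18.7 in Rlim-KO, and 0.126 and 0.0826 CPM in Pygo1-KO, where 10 and 6 reads remained. Only Pygo1-KO lay apart from WT by this much, and the fitted log2 fold change was -7.24 ± 0.34 (adjusted p = 0.000499).

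**Figure D5:**
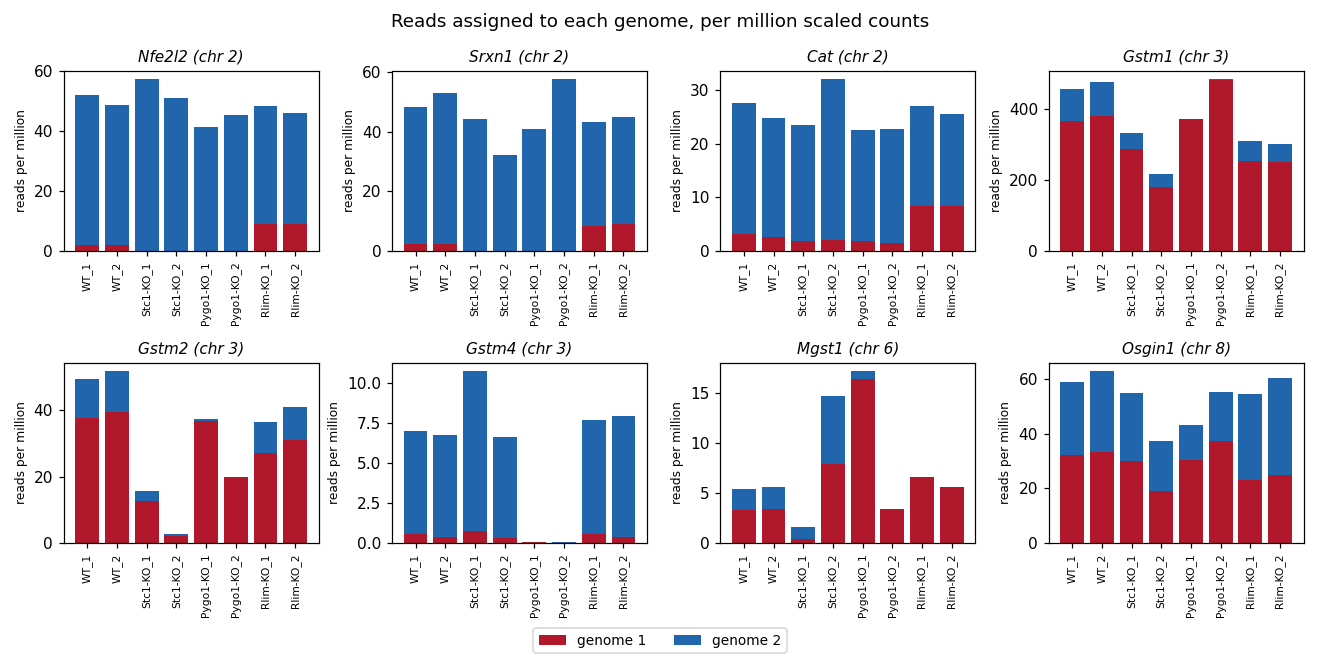
Reads assigned to genome 1 (red) and genome 2 (blue) in CPM, stacked, in each of the 8 libraries for 7 of the 38 genes and Gstm4. The genome 2 part of Gstm1 and Gstm2 is nearly absent in Pygo1-KO while Gstm4 is nearly absent altogether there, and the genome 1 part of Nfe2l2, Srxn1 and Cat is larger in Rlim-KO.

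Chromosome 6 held Mgst1 and Gstk1. Mgst1 had a genome 1 share of 61.5% and 60.5% in WT (intervals 56.7 to 66.0% and 55.9 to 64.9%), 25.2% and 53.6% in Stc1-KO, 95.7% and 100% in Pygo1-KO and 99.4% and 99.3% in Rlim-KO. Pygo1-KO and Rlim-KO lay above WT and passed the test (adjusted p = 0.0438 and 0.0359). The chromosome's median was 72.0% and 71.9% in WT, 94.9% and 99.8% in Pygo1-KO, and 99.7% and 99.8% in Rlim-KO, and it was 71.5% in the first Stc1-KO library, where Mgst1 was at its lowest. Gstk1, a transferase of mitochondria and peroxisomes on the same chromosome, was read from genome 1 in only 17.0% and 21.1% of assigned reads in WT. It stood at 18.8 and 20 CPM in WT, 18.8 and 14.4 in Stc1-KO, 2.18 and 0.317 in Pygo1-KO, and 0.0786 and 0.0257 CPM in Rlim-KO, where 6 and 2 reads were counted. It fell in Rlim-KO (fitted -8.50 ± 1.05, adjusted p = 0.0245), and Pygo1-KO gave -3.95 ± 0.77 (adjusted p = 0.0544).

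Smaller shifts went with the other chromosomes. On chromosome 8, Osgin1 had a genome 1 share of 54.5% and 53.2% in WT, 69.9% and 67.7% in Pygo1-KO and 42.6% and 41.2% in Rlim-KO (adjusted p = 0.0085 and 0.036), next to chromosome medians of 60.2% and 60.2%, 69.8% and 70.2%, and 52.0% and 51.9%. Hmox1 on that chromosome was lower in Rlim-KO (64.9% against 74.4%, adjusted p = 0.0341), and Prdx2 was higher in Pygo1-KO (77.0% against 67.1%, adjusted p = 0.0159). Sod1 on chromosome 16 went from 67.5% in WT to 51.2% in Pygo1-KO and 57.3% in Rlim-KO (adjusted p = 0.00525 and 0.0379), and the chromosome medians were also lower there. Prdx3 and Gsto1 on chromosome 19 rose in Pygo1-KO (66.9 to 88.4% and 87.4 to 95.2%, adjusted p = 0.0017 and 0.00662).

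Keap1, Gclc, Gclm and Gpx1 were nearly single-genome genes already in WT. Gclc had 108 and 112 reads of genome 2 in the WT libraries, 2.05% and 2.25% of its assigned reads, and at most 3 in any mutant library. For Gclm these were 74 and 64 reads in WT and at most 2 elsewhere, and both changes passed the test in all 3 lines (adjusted p = 0.0266, 0.00754 and 0.0142 for Gclc, and 0.0173, 0.00665 and 0.0177 for Gclm). A trace of genome 2 in WT and its near absence in the mutant libraries is thus what was tested there, not a switch between genomes. The median gene of chromosome 9, which holds Keap1, Gclc and Gpx1, stood at 98.7% genome 1 in both WT libraries and 99.9% in every mutant library. The 10 genes around Gclm had medians of 98.6% and 98.4% in WT and 99.6 to 99.8% in the mutant libraries. Around Gclc the medians were 94.7% and 93.5% in WT and 93.4 to 96.4% in the mutant libraries. The part of the region in these changes was not tested.

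Between the lines, the share differed in 10 of the 34 genes for Stc1-KO against Pygo1-KO (10.8% of all genes), in 6 for Stc1-KO against Rlim-KO (12.4%) and in 11 for Pygo1-KO against Rlim-KO (15.9%). Gstm1, Gstm2, Gstm5, Prdx3, Gsto1 and Osgin1 were among them wherever Pygo1-KO was compared, and Nfe2l2, Srxn1, Cat and Osgin1 wherever Rlim-KO was.

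Of the 34 members, 6 stood at least 20 percentage points from their chromosome's median, on the same side, in every library, a distance chosen after the values were seen. Txn1 was read from genome 1 in 86.2 to 93.1% of assigned reads while the chromosome 4 median was at most 1.37%, and Prdx1 on the same chromosome stood at 28.7 to 30.9%. Gsr stood at 20.2 to 26.9% on chromosome 8 (median 51.9 to 70.2%) and Gpx4 at 13.6 to 18.5% on chromosome 10 (40.2 to 48.8%). Sod2 stood at 69.8 to 79.7% on chromosome 17 (37.3 to 55.0%) and Me1 at 73.2 to 74.9% on chromosome 9 (98.7 to 99.9%). Just short of that distance was G6pdx, with 18.9 to 22.7% of its assigned reads from genome 1 where the chromosome X median was at most 0.422%. The share of 50-base windows found in another gene's transcript was 68.9% for Gpx4 (mostly Gpx4-ps2), 33.4% for Me1 (mostly Gm7049), 10.9% for Prdx1, 10.7% for G6pdx (mostly G6pd2), 2.5% for Txn1, 1.43% for Sod2 and 0% for Gsr. Only 16.9 to 18.7% of the Txn1 reads carried a genome. The part of shared sequence in these shares was not tested.

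Within Stc1-KO and Pygo1-KO the antioxidant genes differed between the libraries by more than all genes averaging at least 5 CPM. This is a description with no test, and the genes were not matched by level. Over the 34 genes that could be compared, the median absolute log2 difference between the 2 libraries was 0.11 in WT, 0.58 in Stc1-KO, 0.29 in Pygo1-KO and 0.05 in Rlim-KO, next to 0.10, 0.34, 0.19 and 0.06 over all genes of that level. More than a 2-fold difference between the libraries was found in 4 of these 34 genes in Stc1-KO, 1 in Pygo1-KO and 0 in WT and Rlim-KO. The share of all genes with such a difference was not taken. Gstm2 (20.4 and 3.59 CPM), Mgst1 (2.17 and 21) and Sod1 (75.3 and 165) were among the 4 genes of Stc1-KO, whose second library also held the high Cdh5 level.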

How the data were processed

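RNA of 8 libraries was prepared with a TruSeq kit, per the labels' protocols. The submitters' processing notes name featureCounts, HISAT2 2.0.5, Cufflinks and mm10, with no role given. The authors deposited raw counts of 3 kinds for each gene: all reads, genome 1 reads and genome 2 reads. The strand setting, the treatment of multi-mapped reads and the tool that split the genomes are not given in the sources used here. Symbols, coordinates, exon lengths and sequences come from GENCODE M21 (GRCm38), which matched 49411 of 49670 genes.

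A model with 1 mean per group was fitted to all 8 libraries (edgeR 4.0.16 under R 4.3.3, TMM factors, default filter), and genes were called at an adjusted p under 0.05 over all 17839 genes (common biological coefficient of variation 24.6%). Genome shares were fitted with a term per library and a genome term per group, over 12476 genes with at least 20 assigned reads in every library. Left out were 329 genes whose genome counts summed to more than their total. Chromosome and neighbour medians use genes with at least 50 assigned reads in every library. Intervals are 95% Wilson intervals, a share of 0 is given the limit of 3 reads, and both cover counting error only. The fits were tested on simulated data. Alternatives were other scalings, no filter, DESeq2 1.42.0, the compared groups alone, a replicate block, the sum of both genomes as counts, other read minimums and each library left out.

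Described in full were genes called in any comparison, the regulators, Nqo1, Hmox1, Gclc, Gclm, Srxn1 and Txnrd1, and the 4 largest changes against WT at a mean of at least 5 CPM. Of the pathway lists, called genes were named, up to 4 per list and comparison. Members and lists were chosen with earlier results of these data known. The genome shares named, the window search and the members set against their chromosome were chosen after the values were seen, as were the comparisons of shares between lines.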

Additional observations from a re-analysis of the deposited data

Results flagged for a closer look

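Results that differed between the mutant lines were taken up here, each by a test of the difference itself. Slc48a1 was lower in Stc1-KO than in Pygo1-KO by -0.97 on the log2 scale, and this call was lost under several alternatives. The genome 1 share differed in 10 of the 34 genes for Stc1-KO against Pygo1-KO, in 6 for Stc1-KO against Rlim-KO and in 11 for Pygo1-KO against Rlim-KO. The genome 1 share of Nfe2l2 was 0.113% in Stc1-KO and 0.0911% in Pygo1-KO, below WT, and 19.0% in Rlim-KO, above WT. Srxn1 had 0.0535% in Stc1-KO and 0.027% in Pygo1-KO, and 20% in Rlim-KO. Osgin1 had 68.7% in Pygo1-KO, above WT, and 41.8% in Rlim-KO, below WT. All these shares are pooled over the 2 libraries of a line.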

How the results depend on the processing

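Counts of the 38 genes called by total level moved with the libraries in the fit. Against WT, leaving out each library in turn gave 0 to 15 genes in Stc1-KO, 0 to 10 in Pygo1-KO and 0 to 11 in Rlim-KO, and between lines 0 to 13 (Stc1-KO against Pygo1-KO), 0 to 13 (Stc1-KO against Rlim-KO) and 0 to 7 (Pygo1-KO against Rlim-KO). The high counts came without a Stc1-KO library, where up to 26.0% of all genes were called, and the lone sample is then assumed to vary like the other groups. No filter gave 2 in Stc1-KO and 2 in Rlim-KO. The compared groups alone gave 2 in Pygo1-KO, 24 in Rlim-KO (where 48.9% of all genes were called), 0 for Stc1-KO against Pygo1-KO and 2 for Pygo1-KO against Rlim-KO. DESeq2 gave 3, 1 and 4 against WT and 2, 1 and 2 between lines. With the replicate block, Stc1-KO against Pygo1-KO gave 0 calls and Slc48a1 an adjusted p of 0.0624. Across the tested genes, the difference in log2 CPM between replicate 1 and replicate 2 correlated between groups at -0.16 to 0.04. The replicate numbers thus gave no sign of pairing the libraries.

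Genes with a changed genome share against WT numbered 0 to 7 in Stc1-KO, 5 to 19 in Pygo1-KO and 0 to 11 in Rlim-KO when each library was left out, and between lines 7 to 12, 3 to 7 and 10 to 15. In Stc1-KO the count was 0 without either WT library, 1 without the second Stc1-KO library and 7 without either Pygo1-KO library. Of 779 alternatives for single genes 692 kept direction and side of the threshold, 66 gained the threshold, 7 lost it (all Slc48a1) and 14 changed sign. Without the filter Gclc in Rlim-KO was at -0.006. The other sign changes came from leaving out libraries, over which the log2 fold changes ranged as follows. In Stc1-KO they ranged from -0.03 to 0.182 for Nfe2l2, -0.044 to 0.677 for Keap1, -0.042 to 0.4 for Gclc, -0.008 to 0.605 for Txnrd1, -1.085 to 0.044 for Sod1 and -1.781 to 1.486 for Mgst1. In Pygo1-KO they ranged from -0.06 to 0.213 for Gclc, -0.336 to 0.173 for Srxn1, -0.327 to 0.055 for Gstm1 and -0.702 to 1.627 for Mgst1, and in Rlim-KO from -0.044 to 0.083 for Gclc. The cause of these changes was not tested. Pathway genes were tested in the single fit over all libraries.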
